A study of Mus musculus with 18 samples.

Results

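Cytochrome P450 oxidases (Cyp), UDP-glucuronosyltransferases (Ugt), sulfotransferases (Sult) and glutathione transferases (Gst) were followed in epithelium cut by laser from the colons of mice with azoxymethane/dextran sulfate sodium (AOM/DSS) colitis. Members were defined by name and by a limit on counts, as genes of Cyp families 1 to 4 and of the Ugt1, Ugt2, Sult, Gsta, Gstm, Gsto, Gstp and Gstt families with at least 10 read counts summed over the 18 libraries. The set was chosen with earlier results of these data known. Of 136 genes that matched by name, 100 reached 10 counts, among 55453 gene names in the series. Cyp1a2 and Cyp4a10, with 10 counts each, were just inside this limit, and Cyp2c54, with 9 counts, was just outside. The 100 members were 57 Cyp, 13 Ugt, 11 Sult and 19 Gst genes. A filter on low counts left 65 of them for testing (32 Cyp, 8 Ugt, 8 Sult and 17 Gst), and 35 did not pass it.

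All libraries came from female Swiss Webster mice, an outbred stock, that received the colon carcinogen AOM at 7 weeks of age and 4 cycles of DSS from 9 weeks, each with 7 days on 2% DSS in the drinking water and 14 days on plain water. Chow held 2 mg/kg folic acid (FA) at first, and 8 or 0 mg/kg FA for 16 weeks from 11 weeks of age, with tissue taken at 27 weeks. The 4 groups were polypoid dysplasia on 8 mg/kg FA (8P, n = 5), non-dysplastic epithelium on 8 mg/kg FA (8ND, n = 5), polypoid dysplasia without FA (0P, n = 4) and non-dysplastic epithelium without FA (0ND, n = 4). AOM and DSS were thus shared by all groups, non-dysplastic tissue included, and the epithelium was cut from formalin-fixed, paraffin-embedded colons by histology. Neither the labels nor the methods tie a library to 1 mouse, so p-values measure the spread between these libraries.

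As background, Cyp enzymes of families 1 to 3 add oxygen to drugs, dietary chemicals and steroids, while family 4 mainly oxidizes the end of fatty acid chains. Ugt, Sult and Gst enzymes then attach glucuronic acid, sulfate or glutathione, which makes the products easier to excrete. In the colon these enzymes are known mostly from the mature surface epithelium that meets the luminal content, and several are switched on by the receptors Ahr, Pxr (Nr1i2) and Car (Nr1i3) or by Nrf2 (Nfe2l2).

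Levels are given as CPM, the counts per 1000000 counts of a library after TMM scaling. Total counts on genes ran from 3500947 in 8ND 4 to 17048524 in 0P 4. All 8 epithelial marker genes were measured in each group, with summed levels of 2402 to 3499 CPM in 8P and 2654 to 4356 CPM in 8ND, and 2807 to 4139 CPM in 0P and 2931 to 4384 CPM in 0ND. Of these 8, 5 were lower and 1 higher in 8P vs 8ND (median log2 fold change -0.56), and 3 were lower and 1 higher in 0P vs 0ND (median -0.25). On the first principal component, with 45.6% of the variance, 0P 1 lay closest to non-dysplastic tissue among the P libraries, and 8ND 1 and 8ND 2 lay closest to dysplasia among the ND libraries.

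The summed level of a family gives a first view of how much enzyme RNA each library held. Summed Cyp levels were 144 to 186 CPM in 8P, against 372 to 630.4 CPM in 8ND, and 139 to 248 CPM in 0P, against 592 to 821 CPM in 0ND. The sulfotransferase sum was 33.3 to 60.5 CPM in 8P, against 177 to 292 CPM in 8ND, and 34.9 to 84.1 CPM in 0P, against 292 to 394 CPM in 0ND. For Ugt genes the sum was 103 to 165 CPM in 8P, against 215 to 299.5 CPM in 8ND, and 135 to 179 CPM in 0P, against 316 to 420.0 CPM in 0ND. Every P library was therefore below every ND library of its diet for these 3 families. Glutathione transferases differed from this pattern, with summed levels of 182 to 309 CPM in 8P and 218 to 311 CPM in 8ND, and 268 to 338 CPM in 0P and 264 to 391 CPM in 0ND, and the ranges of P and ND overlapped on both diets. In bulk libraries such as these, fewer cells of a type and less RNA per cell cannot be told apart.

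**Figure D1:**
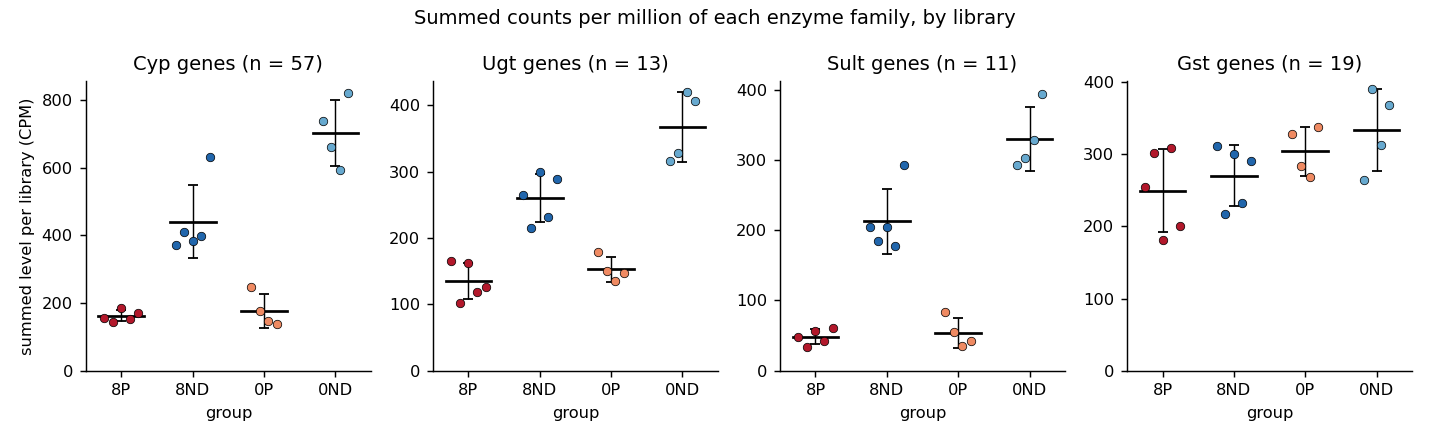
Summed level of the 57 Cyp, 13 Ugt, 11 Sult and 19 Gst members in each library, in TMM-scaled CPM, with the groups 8P, 8ND, 0P and 0ND along the horizontal axis; points are libraries, and lines and bars are the mean and SD (n = 5, 5, 4 and 4). The P libraries sit below the ND libraries of their diet for Cyp, Ugt and Sult genes, whereas the Gst sums overlap.

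The makeup of the most abundant enzymes also differed between P and ND, when levels were taken per kilobase of exonic sequence not shared with another gene. In 8P the highest members were Gsta4 (38.0 CPM per kb), Gsto1 (28.8), Gstm1 (26.6), Ugt2b34 (26.2) and Gstm5 (20.4), so that 4 of the first 5 were glutathione transferases. In 8ND they were Ugt2b34 (45.0 CPM per kb), Sult1a1 (44.7), Cyp2c55 (42.4), Gstm1 (42.1) and Gsto1 (35.2). Without FA, the highest were Gsta4 (44.1 CPM per kb), Gstm1 (36.6), Gsto1 (29.8), Ugt2b34 (28.9) and Gstm5 (25.9) in 0P, against Sult1a1 (71.3), Gstm1 (69.5), Ugt2b34 (64.4), Cyp2d34 (52.7) and Cyp2c55 (50.9) in 0ND. The number of members at or above 10 CPM per kb was 5 in 8P, against 13 in 8ND, and 7 in 0P, against 17 in 0ND.

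The comparisons of 8P with 8ND and of 0P with 0ND asked what differed between dysplasia and non-dysplastic epithelium on each diet. In 8P vs 8ND, 39 of the 65 tested members passed an adjusted p of 0.05 in edgeR's quasi-likelihood test (Benjamini-Hochberg over 20787 genes), against 28.2% of all tested genes. Of these, 34 were lower in 8P (14.3% of all genes were lower), 28 of them by at least 2-fold (7.2%), and 5 were higher (13.9%). In 0P vs 0ND, 44 members passed, against 31.6% of all genes, with 38 lower in 0P (15.7%), 31 of them by at least 2-fold (8.48%), and 6 higher (15.9%). DESeq2 called 44 members in 8P vs 8ND (31% of genes) and 45 in 0P vs 0ND (33.8%), and limma-voom called 41 (28.1%) and 44 (32.2%). The median log2 fold change of the 65 members was -0.89 in 8P vs 8ND and -1.16 in 0P vs 0ND, and that of all tested genes was 0.00 and -0.03. The groups did not overlap for 28 members in 8P vs 8ND (17.2% of all genes), 25 of them lower in 8P (8.94%), and for 42 members in 0P vs 0ND (32.3%), 34 of them lower in 0P (16.1%). The comparisons share no library, but come from the same fit, with the same filter, scaling and estimate of the spread. Both called 31 members lower, which is 91.2% of the 34 and 81.6% of the 38, with 10.2% of all genes lower in both. The 5 members higher in 8P were also higher in 0P (9.66% of all genes were higher in both), and they were Cyp2b10, Sult2a8, Gstm7, Gstm5 and Gsta4. The 35 members under the filter had a summed level of 2.50 to 4.83 CPM in 8P, against 5.25 to 8.01 CPM in 8ND, and 1.87 to 7.00 CPM in 0P, against 6.88 to 9.96 CPM in 0ND.

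Markers of mature colonocytes moved with these counts. For comparison with each marker list, 13.9% of all tested genes were higher and 14.3% lower in 8P. In 0P, 15.9% of all tested genes were higher and 15.7% lower. Of 12 absorptive colonocyte markers, 11 were lower in 8P and 11 in 0P, and their summed level was 478 to 717 CPM in 8P, against 2605 to 4013 CPM in 8ND, and 409 to 1256 CPM in 0P, against 3670.0 to 5571 CPM in 0ND. Goblet cell markers were lower for 7 of 7 genes in 8P and 6 of 7 in 0P, with sums of 832 to 3653 CPM in 8P, against 10750.0 to 20090.0 CPM in 8ND, and 1501 to 3744 CPM in 0P, against 8838 to 9351 CPM in 0ND. Smooth muscle markers were also lower for 6 of 6 genes in both comparisons, with sums of 251 to 564 CPM in 8P, against 924 to 1843 CPM in 8ND, and 353 to 750.3 CPM in 0P, against 1070.0 to 2832 CPM in 0ND. Stem and crypt base markers moved the other way, with 4 of 5 tested genes higher and 1 lower in both comparisons. Their sums were 584 to 828 CPM in 8P, against 150.2 to 297 CPM in 8ND, and 592 to 789 CPM in 0P, against 127 to 174 CPM in 0ND. No marker of these 4 lists was at 0 throughout a group. Squamous epithelium markers were higher for 2 of 3 tested genes in 8P and 3 of 3 in 0P, with sums of 15.4 to 50.5 CPM in 8P, against 1.85 to 15.6 CPM in 8ND, and 27.0 to 118 CPM in 0P, against 0.956 to 2.60 CPM in 0ND. B and plasma cell markers were lower for 3 of 6 genes in 8P and 2 of 6 in 0P, with sums of 296 to 1768 CPM in 8P, against 2337 to 6075 CPM in 8ND, and 574 to 858 CPM in 0P, against 1401 to 3107 CPM in 0ND. Mast cell markers were higher for 3 of 5 genes and lower for 1 in both comparisons. They summed to 50.5 to 378 CPM in 8P, against 55.4 to 92.6 CPM in 8ND, and 43.5 to 169 CPM in 0P, against 50.2 to 77.4 CPM in 0ND. Neutrophil markers were higher for 3 of 4 tested genes and lower for 1 in both comparisons. They summed to 13.4 to 64.5 CPM in 8P, against 9.88 to 18.8 CPM in 8ND, and 16.5 to 29.7 CPM in 0P, against 13.5 to 22.6 CPM in 0ND. Fibroblast markers were higher for 1 and lower for 1 of 7 genes in 8P, which is not far from the shares over all genes. In 0P, fibroblast markers were higher for 4 and lower for 1. Their sums were 867 to 2054 CPM in 8P, against 1062 to 1374 CPM in 8ND, and 1428 to 1872 CPM in 0P, against 832 to 1095 CPM in 0ND. Proliferation markers were higher for 2 of 6 genes in 8P and 4 of 6 in 0P, and none was lower. Hepatocyte markers, which would mark liver RNA, were higher for 1 of 2 tested genes in 8P, and 0 of 2 were called in 0P. They summed to 2.19 to 26.9 CPM in 8P and 1.60 to 8.85 CPM in 8ND, and 6.04 to 15.3 CPM in 0P and 4.01 to 13.4 CPM in 0ND. The part of these cell types in the enzyme results was not tested.

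**Figure D2:**
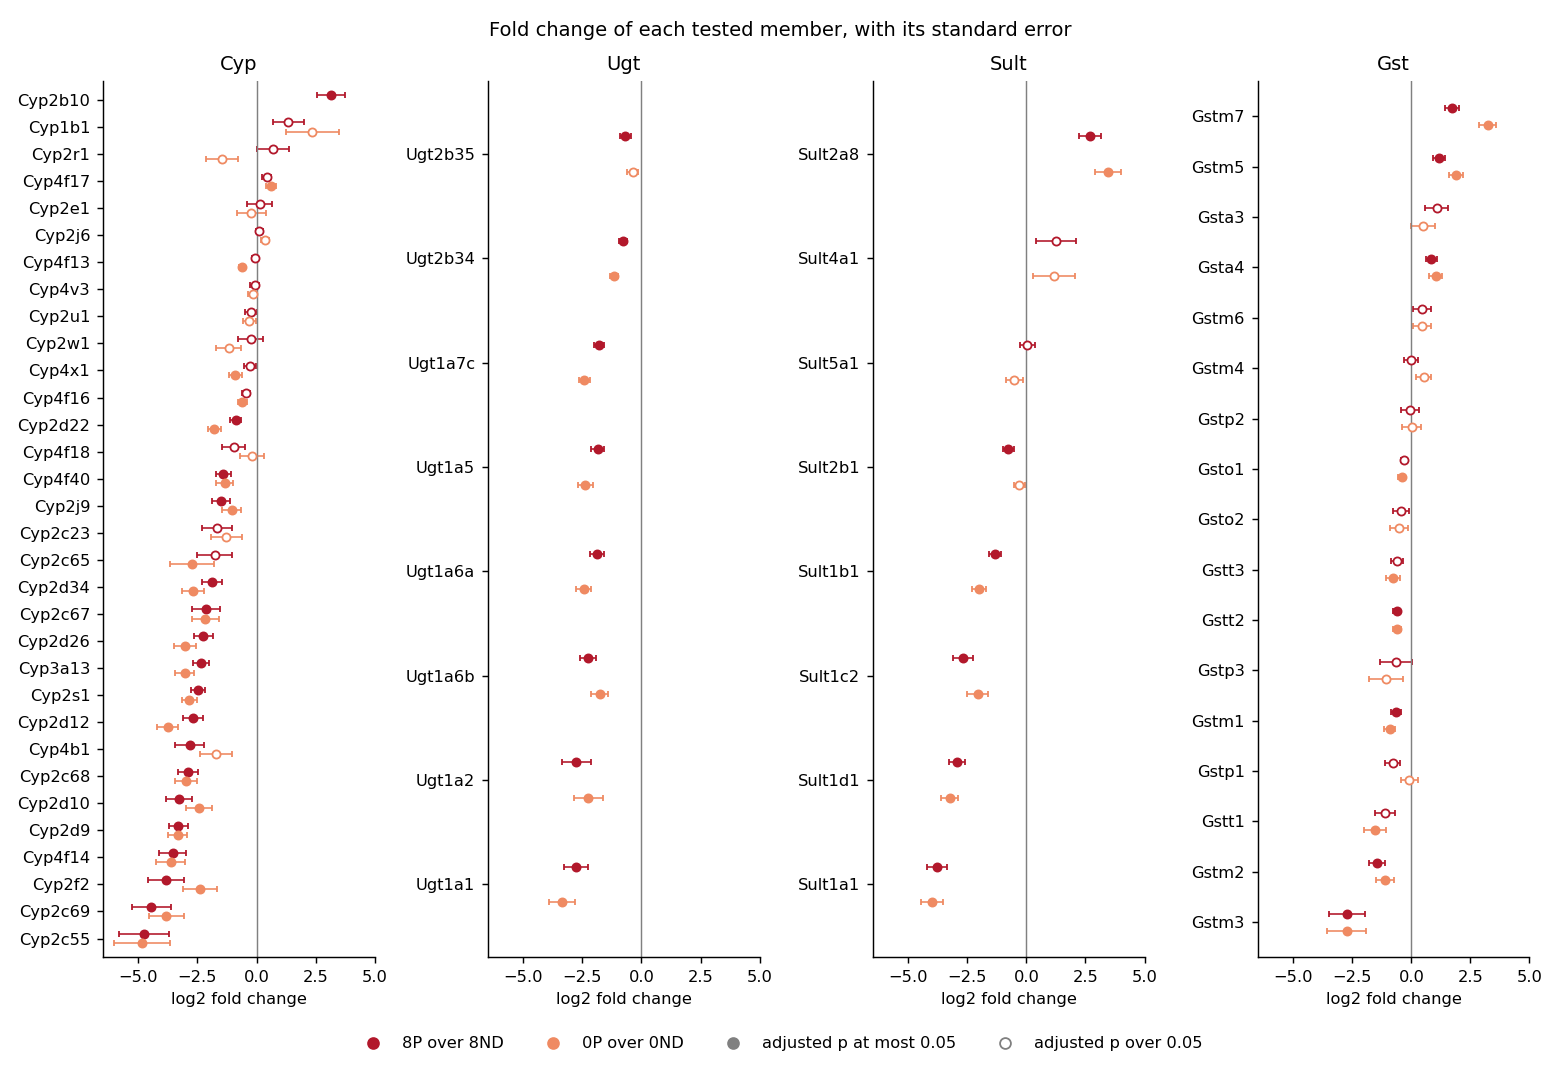
Log2 fold change of each tested member in 8P vs 8ND (dark red) and 0P vs 0ND (orange), with its standard error, by family; filled points have an adjusted p of at most 0.05 in edgeR and open points do not. Most Cyp, Ugt and Sult1 genes lie left of 0 on both diets, and Gstm7, Gstm5, Gsta4 and Sult2a8 lie to the right; Cyp2b10 has no point for 0P vs 0ND because it had no count in 0ND.

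Among the Cyp genes, the Cyp2c subfamily had the members with the largest falls. Cyp2c enzymes hydroxylate drugs and arachidonic acid, and Cyp2c55 is known in mice as a colonic enzyme that makes hydroxylated arachidonic acid. Cyp2c55 (chr19:39007019-39042693 on mm10, the build of all positions here) measured 1.66, 0.218, 1.62, 0.633 and 11.8 CPM in 8P 1 to 8P 5, against 9.96, 111, 21.6, 107 and 174 CPM in 8ND 1 to 8ND 5. Its levels were 9.86, 1.85, 1.65 and 0.933 CPM in 0P 1 to 0P 4, against 235, 28.2, 61.9 and 81.1 CPM in 0ND 1 to 0ND 4, and the order of libraries is the same in all lists that follow. The highest 8P library, 8P 5, lay just above 8ND 1, the lowest 8ND library, and without FA the groups did not overlap. The fall was 27.1-fold in 8P vs 8ND (log2 fold change -4.76 ± 1.06 SE, adjusted p = 0.00363) and 28.7-fold in 0P vs 0ND (log2 fold change -4.84 ± 1.18 SE, adjusted p = 0.00552). The fold in 8P vs 8ND was 77.2 without 8P 5, and the fold in 0P vs 0ND was 70.7 without 0P 1 and 16.1 without 0ND 1.

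Cyp2c68 (chr19:39688834-39741054) measured 4.60, 1.31, 1.06, 2.25 and 1.11 CPM in 8P, against 24.6, 6.58, 17.9, 14.2 and 18.2 CPM in 8ND. Without FA, Cyp2c68 measured 8.10, 4.69, 3.16 and 3.30 CPM in 0P, against 28.4, 32.6, 38.2 and 54.6 CPM in 0ND. Every P library was below every ND library of its diet, and the fall was 7.56-fold in 8P (log2 fold change -2.92 ± 0.42 SE, adjusted p = 8.71e-05) and 7.94-fold in 0P (log2 fold change -2.99 ± 0.45 SE, adjusted p = 8.28e-05). Cyp2c69 fell 21.9-fold in 8P vs 8ND (adjusted p = 0.000531) and 14.1-fold in 0P vs 0ND (adjusted p = 0.000702), and these folds were 48.9 without 8P 1 and 47.4 without 0P 1. Cyp2c69 had only 4 reads in 8P, against 70 in 8ND, and 10 in 0P, against 125 in 0ND. The direction is thus clearer than the size of these folds, and the folds without a library rest on even fewer reads. Cyp2c67 fell 4.401-fold in 8P (adjusted p = 0.0101) and 4.48-fold in 0P (adjusted p = 0.00698). Cyp2c65 passed in 0P vs 0ND (log2 fold change -2.74 ± 0.92 SE, adjusted p = 0.031, as compared to -1.77 ± 0.75 SE and an adjusted p of 0.0885 in 8P vs 8ND). This call was lost without the filter on low counts (adjusted p = 0.103), with limma-voom (0.067) and without 0ND 1 (adjusted p = 0.197), 0P 2 (0.0604), 0P 3 (0.0689) or 0P 4 (0.0968). In total 4 of 6 tested Cyp2c genes were lower in 8P and 5 of 6 in 0P. Cyp2c67, Cyp2c68 and Cyp2c69 are close copies, so reads could be split between them, and 40.1 to 62.2% of reads per library had no unique alignment and were not counted.

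These genes are neighbors, and their promoters are shown because 4 of the 6 tested Cyp2c genes carry the same motif there. The 250 bases before the RefSeq start of each gene (mm10) were searched on both strands for CAAAGTNCA (N is any base), a site of the liver and gut receptor Hnf4. It was found in 10 of 100 windows of the members (85 of 100 members matched a window), which is 10%, against 1.19% of all 32851 windows, and the tested members with it were Cyp2c65, Cyp2c67, Cyp2c68, Cyp2c69 and Cyp2d26. The RefSeq stretches below end before the first annotated transcript, run 5′ to 3′ on the strand of the gene, and carry the motif in capitals.
Cyp2c65 (chr19:39060790-39060958, plus strand): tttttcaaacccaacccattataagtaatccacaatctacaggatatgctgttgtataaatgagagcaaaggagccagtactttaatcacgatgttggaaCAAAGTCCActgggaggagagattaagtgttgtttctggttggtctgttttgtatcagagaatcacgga
Cyp2c67 (chr19:39649099-39649267, minus strand): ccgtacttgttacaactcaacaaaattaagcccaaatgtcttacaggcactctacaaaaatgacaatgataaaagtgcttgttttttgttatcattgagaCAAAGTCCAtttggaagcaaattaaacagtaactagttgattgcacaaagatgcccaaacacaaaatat
Cyp2c68 (chr19:39741110-39741278, minus strand): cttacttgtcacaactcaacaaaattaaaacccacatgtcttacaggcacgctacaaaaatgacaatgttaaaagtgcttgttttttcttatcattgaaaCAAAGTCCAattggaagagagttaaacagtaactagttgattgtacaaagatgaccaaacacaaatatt
Cyp2c69 (chr19:39886800-39886944, minus strand): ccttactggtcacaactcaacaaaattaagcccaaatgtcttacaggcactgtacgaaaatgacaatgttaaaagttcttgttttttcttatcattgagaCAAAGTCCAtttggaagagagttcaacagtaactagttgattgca
Over 69 bases around the motif, the stretches of Cyp2c67, Cyp2c68 and Cyp2c69 shared 91.3 to 94.2% of bases with each other, and that of Cyp2c65 shared 47.8 to 55.1% with them. Cyp2c67, Cyp2c68 and Cyp2c69 are thus not independent instances of the motif, and binding was not measured.

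The Cyp2d subfamily, a gene cluster on chromosome 15, was lower throughout, with 6 of 6 tested genes called in 8P vs 8ND (1.85- to 9.88-fold) and 6 of 6 in 0P vs 0ND (3.46- to 13.6-fold). Cyp2d enzymes oxidize amine drugs and other bases. Cyp2d34 (chr15:82615965-82620946) measured 17.0, 19.6, 32.6, 15.8 and 11.97 CPM in 8P, against 68.0, 55.0, 95.2, 39.0 and 96.3 CPM in 8ND. Without FA, Cyp2d34 had 44.3, 25.3, 14.0 and 7.03 CPM in 0P, against 102, 178, 111 and 194 CPM in 0ND. The groups did not overlap on either diet, and Cyp2d34 fell 3.66-fold in 8P (log2 fold change -1.87 ± 0.42 SE, adjusted p = 0.00326) and 6.45-fold in 0P (log2 fold change -2.69 ± 0.48 SE, adjusted p = 0.000444). Cyp2d12 (chr15:82555072-82560403) measured 2.30, 1.85, 2.44, 2.04 and 1.49 CPM in 8P, against 16.0, 8.01, 17.4, 3.74 and 20.1 CPM in 8ND. In 0P it had 6.51, 3.54, 2.88 and 1.49 CPM, against 26.4, 54.1, 54.0 and 61.5 CPM in 0ND. Its fall was 6.50-fold in 8P (log2 fold change -2.70 ± 0.42 SE, adjusted p = 0.000146) and 13.6-fold in 0P (log2 fold change -3.77 ± 0.46 SE, adjusted p = 1.18e-05), and the lowest ND library was above the highest P library of its diet.

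Cyp2d9, a testosterone hydroxylase of mouse liver, averaged 0.559 ± 0.263 CPM in 8P, against 5.49 ± 1.73 CPM in 8ND, and 1.30 ± 0.737 CPM in 0P, against 13.4 ± 5.14 CPM in 0ND (SD). It was lower in all P libraries, by 9.88-fold in 8P (adjusted p = 1.31e-05) and 10.2-fold in 0P (adjusted p = 8.52e-06). Cyp2d10 averaged 0.468 ± 0.413 CPM in 8P, against 4.72 ± 2.89 CPM in 8ND, and 1.60 ± 0.802 CPM in 0P, against 8.87 ± 2.62 CPM in 0ND. It passed in both comparisons (-3.29 ± 0.55 SE, adjusted p = 0.00024, and -2.43 ± 0.55 SE, adjusted p = 0.00212), although 8P 1 was above 8ND 4. Cyp2d26 fell 4.77-fold in 8P (adjusted p = 0.000405) and 8.10-fold in 0P (adjusted p = 5.8e-05). Cyp2d22 changed least in the subfamily, by 1.85-fold in 8P (adjusted p = 0.0109) and 3.46-fold in 0P (adjusted p = 8.36e-05). The Cyp2d genes resemble each other closely, and the division of reads between them is uncertain.

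Cyp3a13, an intestinal enzyme of the drug-oxidizing Cyp3a subfamily and the only tested member of family 3, was lower in dysplasia as well. Cyp3a13 (chr5:137892932-137921619) measured 6.83, 4.14, 6.17, 7.46 and 6.12 CPM in 8P, against 39.4, 20.0, 25.1, 27.0 and 46.0 CPM in 8ND. Without FA, Cyp3a13 had 17.0, 10.7, 4.53 and 3.73 CPM in 0P, against 60.5, 75.1, 72.0 and 91.5 CPM in 0ND. No P library reached an ND library of its diet, and the fall was 5.09-fold in 8P (log2 fold change -2.35 ± 0.34 SE, adjusted p = 9.28e-05) and 8.27-fold in 0P (log2 fold change -3.05 ± 0.38 SE, adjusted p = 1.63e-05). Cyp2s1, an enzyme found mainly outside the liver, fell 5.58-fold in 8P (adjusted p = 8.13e-06) and 7.21-fold in 0P (adjusted p = 3.43e-06), with no overlap. Cyp2j9, of a subfamily that makes fatty acid epoxides, fell 2.83-fold in 8P (adjusted p = 0.00493) and 2.08-fold in 0P (adjusted p = 0.0499). The groups overlapped in 0P vs 0ND, and that call of Cyp2j9 was lost without the filter on low counts (adjusted p = 0.0965), with RLE size factors (0.053) and without any 1 of 14 libraries (0.053 to 0.153), which were all but 0P 1, 8P 1, 8P 3 and 8P 4. A block for the replicate number also ended that call (adjusted p = 0.0792). Cyp2f2, known for activating naphthalene in mouse airways, averaged 0.274 ± 0.322 CPM in 8P, against 4.31 ± 3.89 CPM in 8ND, and 1.47 ± 0.811 CPM in 0P, against 7.99 ± 5.43 CPM in 0ND. It was lower in 8P (log2 fold change -3.83 ± 0.77 SE, adjusted p = 0.00123) and in 0P (log2 fold change -2.40 ± 0.71 SE, adjusted p = 0.0152), while 8P 1 was above the lowest 8ND library. The call of Cyp2f2 in 0P was lost without the filter on low counts (adjusted p = 0.0614) and without 0ND 3 (0.0683).

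**Figure D3:**
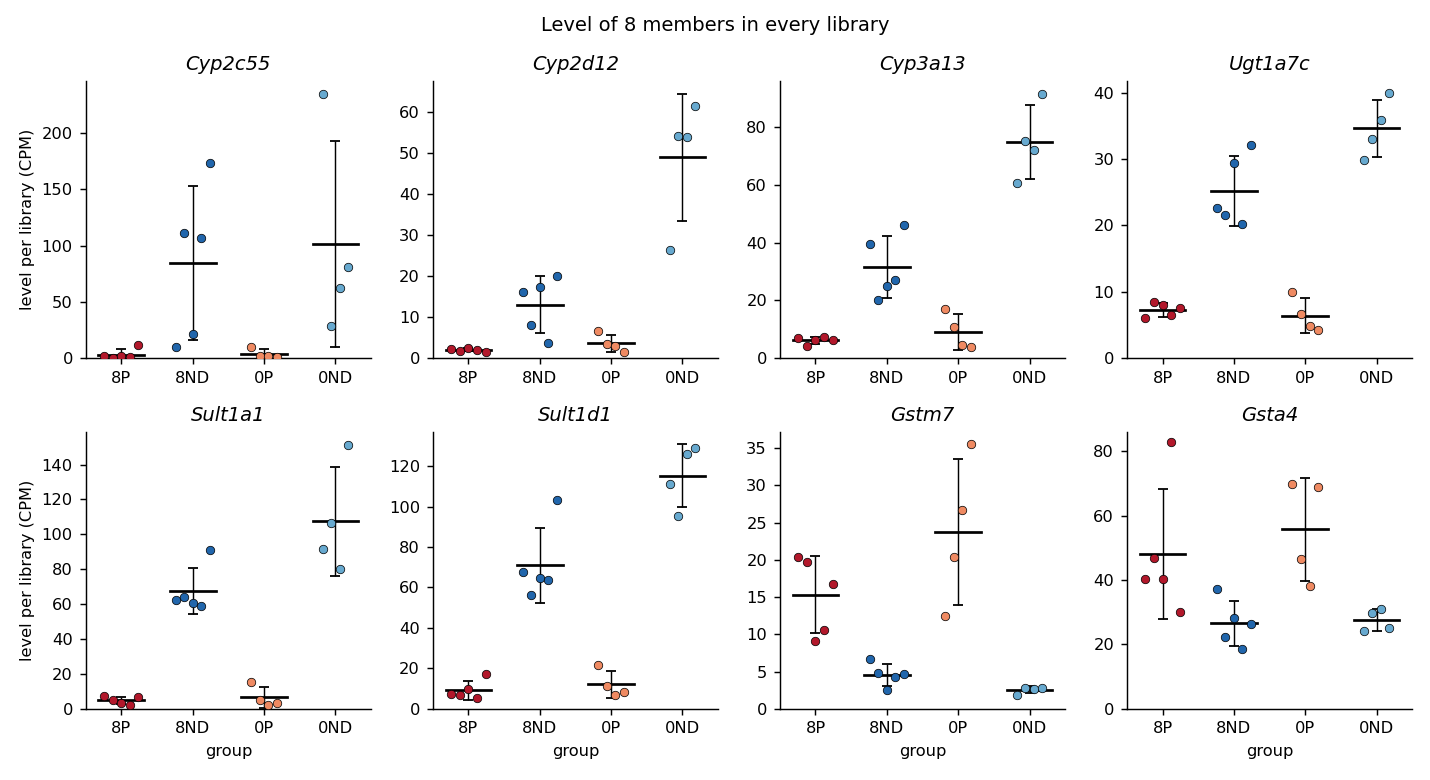
Level of 8 members in every library, in TMM-scaled CPM (own scale per panel, from 0), by group (8P, 8ND, 0P and 0ND); points are libraries, and lines and bars are the mean and SD (n = 5, 5, 4 and 4). Cyp2c55, Cyp2d12, Cyp3a13, Ugt1a7c, Sult1a1 and Sult1d1 are low in P libraries, and Gstm7 and Gsta4 have higher means in P.

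Family 4 enzymes, which hydroxylate fatty acids and eicosanoids, were mixed. Cyp4f14, which inactivates leukotriene B4 in mice, measured 1.66, 0.871, 1.62, 0.985 and 3.90 CPM in 8P, against 12.2, 20.4, 18.7, 16.0 and 38.1 CPM in 8ND. In 0P, Cyp4f14 (chr17:32905070-32917342) had 6.34, 1.46, 0.686 and 0.622 CPM, against 39.1, 23.1, 20.0 and 30.4 CPM in 0ND. 8P 5 and 0P 1 were the highest P libraries, both still below every ND library of their diet, and the fall was 11.8-fold in 8P (log2 fold change -3.55 ± 0.56 SE, adjusted p = 0.000191) and 12.3-fold in 0P (log2 fold change -3.62 ± 0.61 SE, adjusted p = 0.000264), or 29.8-fold in 0P without 0P 1. Cyp4f13, another leukotriene and fatty acid hydroxylase, differed from this. It measured 37.7, 27.3, 38.8, 35.3 and 38.0 CPM in 8P, against 40.0, 37.6, 32.4, 35.2 and 41.1 CPM in 8ND, which overlapped (log2 fold change -0.07 ± 0.12 SE, adjusted p = 0.702). Cyp4f13 had 33.6, 25.7, 32.6 and 30.1 CPM in 0P, against 46.9, 42.9, 40.0 and 57.6 CPM in 0ND, with no overlap (log2 fold change -0.62 ± 0.14 SE, adjusted p = 0.00185). Cyp4f40 fell on both diets (adjusted p = 0.00263 in 8P and 0.00616 in 0P), Cyp4f16 and Cyp4x1 fell in 0P (adjusted p = 0.0216 and 0.0175, with 0.0577 and 0.446 in 8P), and Cyp4b1 fell in 8P, by 7.14-fold (adjusted p = 0.00206, with 0.0561 in 0P). The call of Cyp4f16 in 0P was lost without the filter on low counts (adjusted p = 0.061) and without 0ND 2 (adjusted p = 0.0646), 0ND 4 (0.0783), 0P 3 (0.074) or 0P 4 (0.0535). That of Cyp4x1 was lost without the filter on low counts (adjusted p = 0.0871) and without 0ND 3 (adjusted p = 0.0678), 0P 1 (0.0535) or 0P 3 (0.0514). Whether these falls differ between the diets is tested by the interaction given below. Cyp4f17 was the 1 gene of family 4 that was higher, with 5.63, 6.08, 7.00 and 6.72 CPM in 0P, against 3.50, 5.11, 3.08 and 5.09 CPM in 0ND (0.61 ± 0.21 SE on the log2 scale, adjusted p = 0.0328). In 8P, Cyp4f17 had 5.94, 4.90, 5.77, 6.61 and 5.38 CPM, against 3.32, 4.04, 3.86, 5.34 and 4.93 CPM in 8ND, and did not pass (log2 fold change 0.43 ± 0.19 SE, adjusted p = 0.101). The call in 0P was lost without 0ND 1 (adjusted p = 0.104), 0ND 3 (0.113), 0P 2 (0.0516), 0P 3 (0.0647) or 0P 4 (0.0787) and without the filter on low counts (0.149). A block for the replicate number also ended this call (adjusted p = 0.0615).

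Cyp2b10, the classical target of Car in mouse liver, stood out among the oxidases because it was higher in dysplasia, at a low level. It measured 2.62, 0.980, 2.44, 2.32 and 2.23 CPM in 8P, against 0.553, 0.317, 0, 0 and 0.205 CPM in 8ND, where 10 reads were counted in all. Cyp2b10 (chr7:25897620-25926624) had 1.85, 8.00, 4.25 and 4.23 CPM in 0P, from 224 reads, and no read in any 0ND library. All P libraries exceeded all ND libraries, and the rise was 8.81-fold in 8P (log2 fold change 3.14 ± 0.59 SE, adjusted p = 0.000849) and at least 59.7-fold in 0P, taking 3 counts over the 0ND group as the floor (adjusted p = 1.09e-05). Nr1i3, which encodes Car, moved the other way, with 0.958, 0.762, 1.46, 0.563 and 0.742 CPM in 8P, against 2.63, 1.27, 3.54, 1.87 and 4.73 CPM in 8ND, and 0.968, 0.462, 0.412 and 0.684 CPM in 0P, against 4.52, 3.88, 5.57 and 3.90 CPM in 0ND (-1.65 ± 0.35 SE, adjusted p = 0.00172, and -2.78 ± 0.41 SE, adjusted p = 4.1e-05). Cyp1b1, an Ahr target that oxidizes estrogens and polycyclic hydrocarbons, measured 0.639, 2.83, 0.406, 0.844 and 6.96 CPM in 8P, against 1.11, 0.872, 0.215, 0.801 and 1.44 CPM in 8ND. Cyp1b1 had 0.880, 0.616, 0.412 and 0.498 CPM in 0P, against 0, 0.353, 0.118 and 0.108 CPM in 0ND, and it did not pass in either comparison (adjusted p = 0.146 and 0.117), with 8P 5 and 8P 2 the highest libraries and no overlap between 0P and 0ND. Cyp1a1, the best known Ahr target, had 4 counts over all 18 libraries and was no member. Cyp2e1, which activates AOM and was named for that role after its values were seen, averaged 1.03 ± 0.546 CPM in 8P, against 1.01 ± 0.756 CPM in 8ND, and 0.643 ± 0.297 CPM in 0P, against 0.757 ± 0.266 CPM in 0ND, with no call (adjusted p = 0.876 and 0.818). Of the genes in the study's methylation lists, Cyp2c29, Cyp2c66 and Cyp3a11 had 14, 12 and 20 counts in all and were too low to test.

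Glucuronosyltransferases were lower for 8 of 8 tested genes in 8P and 7 of 8 in 0P. The Ugt1a genes on chromosome 1 each have a first exon of their own and share the remaining exons, so counts per gene depend on how reads of the shared exons were assigned, which the sources used here do not give. Their summed level, which depends less on that division, was 11.7 to 14.6 CPM in 8P, against 39.0 to 58.4 CPM in 8ND, and 8.52 to 23.1 CPM in 0P, against 62.3 to 75.0 CPM in 0ND, with no overlap on either diet. All 6 tested Ugt1a genes fell in both comparisons, by 3.46- to 6.79-fold in 8P and 3.41- to 10.3-fold in 0P. Ugt1a7c (chr1:88095062-88220002) measured 6.003, 8.49, 8.04, 6.47 and 7.61 CPM in 8P, against 22.7, 21.6, 29.4, 20.3 and 32.1 CPM in 8ND. Ugt1a7c had 9.95, 6.70, 4.80 and 4.23 CPM in 0P, against 29.9, 33.0, 35.9 and 40.0 CPM in 0ND, and every P library was below every ND library of its diet. It fell 3.46-fold in 8P (log2 fold change -1.79 ± 0.20 SE, adjusted p = 7.21e-06) and 5.38-fold in 0P (log2 fold change -2.43 ± 0.23 SE, adjusted p = 1e-06). Ugt1a1, which conjugates bilirubin, fell 6.79-fold in 8P (adjusted p = 0.00055) and 10.3-fold in 0P (adjusted p = 0.000141), or 23.1-fold without 0P 1. Ugt1a6a, an enzyme for planar phenols, fell 3.69-fold in 8P (adjusted p = 7.8e-05) and 5.48-fold in 0P (adjusted p = 1.45e-05), and Ugt1a6b, Ugt1a5 and Ugt1a2 passed in both comparisons with adjusted p between 1.62e-05 and 0.00941.

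The 2 tested Ugt2b genes, of a subfamily whose enzymes conjugate steroids and bile acids, changed less. Ugt2b5 was under the filter, with 2 reads in 8P, against 42 in 8ND, and 1 in 0P, against 30 in 0ND. In the edgeR fit without the filter its log2 fold changes were -4.48 (adjusted p = 0.00123) in 8P and -4.29 (adjusted p = 0.00952) in 0P. Ugt2b34 (chr5:86889767-86906937) measured 141, 81.0, 140.0, 101 and 103 CPM in 8P, against 208, 152, 224, 169 and 215 CPM in 8ND. In 0P, Ugt2b34 had 145, 121, 108 and 123 CPM, against 239, 238, 329 and 305 CPM in 0ND, again with no overlap. It fell 1.71-fold in 8P (log2 fold change -0.78 ± 0.15 SE, adjusted p = 0.000948) and 2.23-fold in 0P (log2 fold change -1.16 ± 0.17 SE, adjusted p = 5.28e-05). Ugt2b35 measured 12.7, 7.73, 8.45, 5.77 and 7.89 CPM in 8P, against 17.6, 11.3, 16.6, 9.88 and 12.5 CPM in 8ND, and passed with overlapping groups (log2 fold change -0.68 ± 0.23 SE, adjusted p = 0.03). This call was lost without 8ND 1 (adjusted p = 0.0826), 8ND 3 (0.0807), 8P 2 (0.0529), 8P 3 (0.051), 8P 4 (0.0806) or 8P 5 (0.0595). Ugt2b35 had 10.9, 16.6, 16.5 and 15.7 CPM in 0P, against 12.9, 21.9, 16.9 and 25.9 CPM in 0ND, and did not pass there (log2 fold change -0.37 ± 0.25 SE, adjusted p = 0.274).

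Sulfotransferases of family 1, which act on phenols and amines, had large falls, and all 4 tested genes passed without overlap on both diets. Sult1a1, the main phenol sulfotransferase, measured 7.41, 4.79, 3.33, 2.32 and 6.59 CPM in 8P, against 62.5, 64.1, 60.6, 58.7 and 91.0 CPM in 8ND. Sult1a1 (chr7:126672865-126676432) had 15.4, 5.31, 2.19 and 3.55 CPM in 0P, against 91.7, 107, 80.0 and 151 CPM in 0ND. The lowest ND value was more than the highest P value on both diets, and the fall was 13.8-fold in 8P (log2 fold change -3.78 ± 0.43 SE, adjusted p = 1.5e-05) and 16.1-fold in 0P (log2 fold change -4.01 ± 0.48 SE, adjusted p = 1.32e-05), or 28.3-fold in 0P without 0P 1. Sult1d1, which sulfates dopamine and related amines in mice, measured 7.28, 6.75, 9.91, 5.21 and 17.1 CPM in 8P, against 67.5, 56.2, 64.6, 63.5 and 103 CPM in 8ND. Sult1d1 (chr5:87554645-87569027) had 21.8, 11.2, 6.59 and 8.52 CPM in 0P, against 111, 95.4, 126 and 129 CPM in 0ND. Here too no P library reached an ND library, and Sult1d1 fell 7.72-fold in 8P (log2 fold change -2.95 ± 0.33 SE, adjusted p = 1.22e-05) and 9.54-fold in 0P (log2 fold change -3.25 ± 0.37 SE, adjusted p = 7.57e-06). Sult1c2 fell 6.42-fold in 8P (adjusted p = 9.29e-05) and 4.19-fold in 0P (adjusted p = 0.00104), and Sult1b1, which acts on thyroid hormones, fell 2.50-fold in 8P (adjusted p = 0.000934) and 4.00-fold in 0P (adjusted p = 5.62e-05). Sult2b1, a cholesterol sulfotransferase, was lower in 8P (log2 fold change -0.77 ± 0.23 SE, adjusted p = 0.015) and not called in 0P (log2 fold change -0.30 ± 0.25 SE, adjusted p = 0.404). The call of Sult2b1 in 8P was lost without the filter on low counts (adjusted p = 0.0688) and with a block for the replicate number (0.0563). Sult2a8, known as a bile acid sulfotransferase of mouse liver, was the 1 sulfotransferase that was higher, with 5.11, 1.96, 1.79, 4.22 and 3.80 CPM in 8P, against 0, 0.951, 0.751, 0.534 and 0.205 CPM in 8ND. In 0P, Sult2a8 (chr7:14410686-14446769) had 2.46, 4.46, 3.98 and 4.54 CPM, against 0.255, 0.529, 0.474 and 0.217 CPM in 0ND. Its level was low, yet the groups did not overlap, and it rose 6.47-fold in 8P (log2 fold change 2.69 ± 0.48 SE, adjusted p = 0.000352) and 10.9-fold in 0P (log2 fold change 3.45 ± 0.56 SE, adjusted p = 0.000115).

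Sites of the xenobiotic receptors were not more frequent in the members' windows than in all windows. GCGTG, the core bound by Ahr with Arnt, was in 24% of the members' windows, against 28.2% of all windows, AGTTCA, the repeat unit bound by nuclear receptors, in 11%, against 11.8%, and TGACNNNGC, the antioxidant response element core bound by Nrf2, in 5%, against 10.2%. A match is a description of the letters and not a site shown to be in use. Sites farther from the start and pairs of repeat units were not searched, so the search cannot show whether members have them.

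Glutathione transferases moved in both directions, with 3 of 17 tested genes higher and 4 lower in 8P, and 3 higher and 7 lower in 0P. Of all tested genes, 13.9% were higher and 14.3% lower in 8P, and 15.9% were higher and 15.7% lower in 0P. The counts in 8P and the higher count in 0P were not far from these shares. The mu class, 7 genes within 149.1 kb of chromosome 3, held both kinds side by side. Gstm7 (chr3:107926334-107931817) measured 20.4, 19.7, 9.10, 10.6 and 16.8 CPM in 8P, against 6.64, 4.83, 2.47, 4.27 and 4.73 CPM in 8ND. Gstm7 had 12.5, 20.3, 26.6 and 35.5 CPM in 0P, against 1.91, 2.82, 2.72 and 2.81 CPM in 0ND, and every P library was above every ND library of its diet. It rose 3.33-fold in 8P (log2 fold change 1.74 ± 0.30 SE, adjusted p = 0.000269) and 9.38-fold in 0P (log2 fold change 3.23 ± 0.35 SE, adjusted p = 3.34e-06). Gstm5 (chr3:107895821-107898686) measured 25.4, 39.0, 13.1, 31.8 and 21.2 CPM in 8P, against 16.3, 12.3, 11.7, 6.41 and 9.96 CPM in 8ND, where 8P 3 was the 1 library below the highest ND library. In 0P, Gstm5 had 26.8, 30.6, 35.5 and 39.8 CPM, against 6.69, 11.3, 8.64 and 9.53 CPM in 0ND, with no overlap. It rose 2.27-fold in 8P (log2 fold change 1.18 ± 0.25 SE, adjusted p = 0.00173) and 3.71-fold in 0P (log2 fold change 1.89 ± 0.29 SE, adjusted p = 6.63e-05).

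Further along the cluster the direction was the opposite. Gstm3 averaged 0.783 ± 0.830 CPM in 8P, against 5.16 ± 4.92 CPM in 8ND, and 0.970 ± 0.265 CPM in 0P, against 6.55 ± 3.02 CPM in 0ND, and was lower in both comparisons (adjusted p = 0.0131 and 0.0172). Both calls of Gstm3 were lost without the filter on low counts (adjusted p = 0.0515 in 8P and 0.0631 in 0P), and that in 8P also with limma-voom (0.059) and without 8ND 5 (adjusted p = 0.0516). Gstm2 averaged 11.4 ± 7.19 CPM in 8P, against 31.0 ± 10.8 CPM in 8ND, and 17.6 ± 3.81 CPM in 0P, against 38.3 ± 9.34 CPM in 0ND, and was lower as well (adjusted p = 0.00459 and 0.0327). The call of Gstm2 in 0P was lost without the filter on low counts (adjusted p = 0.122) and without 0ND 2 (adjusted p = 0.0671), 0ND 4 (0.0937), 0P 2 (0.0845), 0P 3 (0.0956) or 0P 4 (0.0529). Gstm1 measured 58.2, 48.3, 23.8, 36.0 and 29.3 CPM in 8P, against 70.1, 44.7, 67.9, 57.4 and 69.8 CPM in 8ND. Gstm1 had 46.7, 59.5, 57.4 and 52.3 CPM in 0P, against 64.9, 129, 102 and 114 CPM in 0ND. It overlapped between 8P and 8ND but not between 0P and 0ND, and the fall was 1.58-fold in 8P (log2 fold change -0.66 ± 0.22 SE, adjusted p = 0.0279) and 1.89-fold in 0P (log2 fold change -0.92 ± 0.24 SE, adjusted p = 0.00641). The call of Gstm1 in 8P was lost without the filter on low counts (adjusted p = 0.089), with only the groups compared (0.0556) and without 8ND 1 (adjusted p = 0.06), 8ND 3 (0.0602), 8ND 5 (0.0629), 8P 3 (0.0674), 8P 4 (0.061) or 8P 5 (0.0711). Gstm6 and Gstm4 passed in neither comparison, with adjusted p between 0.225 and 0.969. Reads of such close copies can be divided wrongly, which limits the level of each gene.

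**Figure D4:**
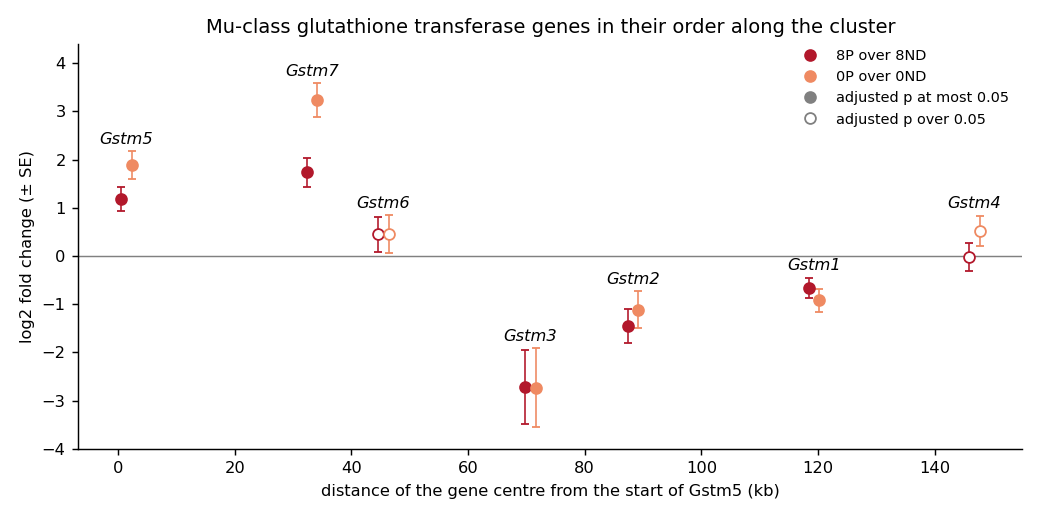
Log2 fold change (± SE) of the 7 mu-class glutathione transferase genes in 8P vs 8ND (dark red) and 0P vs 0ND (orange), by distance of the gene center from the start of Gstm5 in kb; filled points have an adjusted p of at most 0.05 in edgeR. Gstm5 and Gstm7 at the left end lie above 0, and Gstm3, Gstm2 and Gstm1 lie below 0 on both diets.

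Gstm5 is 1 of 5 tested members with the antioxidant response element core, beside Cyp4f14, Cyp4f18, Gsta3 and Gstm7. Its stretch is shown because the gene was higher in both comparisons, with the motif in capitals.
Gstm5 (chr3:107895712-107895820, plus strand): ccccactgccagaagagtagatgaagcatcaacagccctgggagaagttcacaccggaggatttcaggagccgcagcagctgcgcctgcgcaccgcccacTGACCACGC
Among the other members with this core, Cyp4f14 was lower and Gstm7 higher on both diets, and Cyp4f18 and Gsta3 passed in neither comparison.

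Gsta4, which removes the lipid peroxidation product 4-hydroxynonenal, was the other glutathione transferase that was higher. Gsta4 (chr9:78182774-78209349) measured 40.4, 46.8, 40.3, 83.0 and 30.2 CPM in 8P, against 37.2, 22.2, 28.3, 18.7 and 26.5 CPM in 8ND, with 8P 5 below 8ND 1. In 0P, Gsta4 had 69.9, 46.6, 38.1 and 68.9 CPM, against 24.1, 29.8, 31.0 and 25.0 CPM in 0ND, with no overlap. It rose 1.80-fold in 8P (log2 fold change 0.85 ± 0.24 SE, adjusted p = 0.0131) and 2.04-fold in 0P (log2 fold change 1.03 ± 0.27 SE, adjusted p = 0.00681). A block for the replicate number ended the call of Gsta4 in 8P (adjusted p = 0.0621). Theta-class Gstt2 measured 11.4, 13.1, 12.5, 8.94 and 12.2 CPM in 8P, against 15.6, 16.2, 14.6, 21.6 and 21.1 CPM in 8ND, and fell 1.53-fold (log2 fold change -0.61 ± 0.14 SE, adjusted p = 0.00354). Without FA, Gstt2 had 13.8, 10.4, 12.3 and 13.4 CPM in 0P, against 19.0, 20.1, 16.9 and 20.7 CPM in 0ND, and fell 1.53-fold (log2 fold change -0.62 ± 0.16 SE, adjusted p = 0.00586). No P library overlapped an ND library of its diet for Gstt2, and Gstt1 and Gstt3 were lower in 0P (adjusted p = 0.0157 and 0.0482, with 0.0588 and 0.09 in 8P). The call of Gstt1 was lost without 0ND 2 (adjusted p = 0.0609) or 0P 3 (0.0528). That of Gstt3 was lost without the filter on low counts (adjusted p = 0.0554) and without any 1 of 13 libraries (0.0501 to 0.166), which were all but 0ND 3, 0P 1, 8P 3, 8P 4 and 8P 5. Gsto1, an omega-class enzyme that also reduces dehydroascorbate, averaged 58.3 ± 7.50 CPM in 8P, against 71.2 ± 9.62 CPM in 8ND (-0.29 ± 0.13 SE on the log2 scale, adjusted p = 0.09), and 60.2 ± 10.4 CPM in 0P, against 80.3 ± 9.21 CPM in 0ND (-0.41 ± 0.14 SE on the log2 scale, adjusted p = 0.0309), with overlap on both diets. The call of Gsto1 in 0P was lost without the filter on low counts (adjusted p = 0.0853) and without 0ND 2 (adjusted p = 0.0881), 0ND 4 (0.0837), 0P 2 (0.0666), 0P 3 (0.15) or 0P 4 (0.0642). A block for the replicate number also ended the call of Gsto1 (adjusted p = 0.0644). Gstp1, the pi-class enzyme often raised in tumors, averaged 6.56 ± 2.96 CPM in 8P, against 11.3 ± 4.21 CPM in 8ND, and 10.5 ± 1.82 CPM in 0P, against 11.2 ± 4.16 CPM in 0ND, and none of the 3 tested Gstp genes passed (adjusted p of Gstp1 0.0742 and 0.893).

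In all, 18 of the 65 tested members passed in neither comparison, with fitted log2 fold changes from -1.66 to 1.35 in 8P vs 8ND and from -1.47 to 2.36 in 0P vs 0ND. Beside those named above they were Cyp2c23, Cyp2j6, Cyp2r1, Cyp2u1, Cyp2w1, Cyp4v3, Gsto2, Sult4a1 and Sult5a1. Cyp2j6, an epoxygenase of fatty acids that is common in mouse intestine, averaged 23.3 ± 4.86 CPM in 8P, against 21.5 ± 2.55 CPM in 8ND, and 23.5 ± 4.00 CPM in 0P, against 18.3 ± 1.76 CPM in 0ND (adjusted p = 0.586 and 0.0994). Cyp2w1, whose human counterpart is known from colorectal tumors, averaged 1.16 ± 0.282 CPM in 8P, against 1.47 ± 0.856 CPM in 8ND, and 1.45 ± 1.19 CPM in 0P, against 3.34 ± 1.90 CPM in 0ND (adjusted p = 0.756 and 0.0975). Cyp2j6 and Cyp2w1 were named for these roles after their values were seen.

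Setting 8ND against 0ND asked how FA intake bore on these enzymes where no dysplasia was present. No member passed in edgeR, as compared to 10 of 20787 genes (0.0481%), while 21 of 65 members had an unadjusted p under 0.05 (9.91% of all genes). DESeq2 called 3 members (1.65% of the genes with an adjusted p), which were Cyp2d12, Cyp3a13 and Cyp2d9, all lower in 8ND, and limma-voom called 0 (0.0192% of genes). Of the 65 members, 51 had a fitted log2 fold change below 0, with a median of -0.38, against a median of 0.00 over all tested genes. The groups did not overlap for 6 members (3.94% of all genes), all lower in 8ND (1.8%), which were Cyp2c68, Cyp2d12, Cyp2d34, Cyp3a13, Cyp4v3 and Ugt2b34. With the values given above, the level of Cyp2d12 in 8ND was lower than in 0ND by 3.67-fold (log2 fold change -1.88 ± 0.39 SE, adjusted p = 0.0751 in edgeR and 0.000652 in DESeq2), and passed in edgeR without 8ND 3 (adjusted p = 0.0362). Cyp3a13 was 2.37-fold lower (log2 fold change -1.25 ± 0.33 SE, adjusted p = 0.149 in edgeR and 0.0203 in DESeq2). Cyp2d9 had 5.12, 4.83, 8.16, 3.47 and 5.86 CPM in 8ND, against 7.58, 19.9, 11.8 and 14.1 CPM in 0ND, with 8ND 3 above 0ND 1 (log2 fold change -1.25 ± 0.35 SE, adjusted p = 0.157 in edgeR and 0.0336 in DESeq2). Absorptive colonocyte markers had 0 of 12 genes called, 4 with an unadjusted p under 0.05 and 9 with a fitted value below 0, and their sums are given above, with their part in these values not tested. Distal colon markers also had 0 of 5 genes called and none with an unadjusted p under 0.05, but 5 of 5 fitted values below 0 (median -1.56). Their sums were 89.2 to 218 CPM in 8ND, against 142 to 367 CPM in 0ND. Stem and crypt base markers had 0 of 5 called and 3 with an unadjusted p under 0.05 (median 0.84), and neutrophil markers had 0 of 4 called and 2 with such a p. The sums of goblet cell markers, given above, were higher in every 8ND library than in any 0ND library, with 0 of 7 genes called and 2 with such a p. The part of these markers was not tested. Cyp1b1 and Cyp2b10 had the highest fitted values in 8ND vs 0ND, but rested on 38 reads in 8ND and 4 in 0ND for Cyp1b1, and on 10 reads in 8ND and none in 0ND for Cyp2b10 (adjusted p = 0.333 and 0.27).

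**Figure D5:**
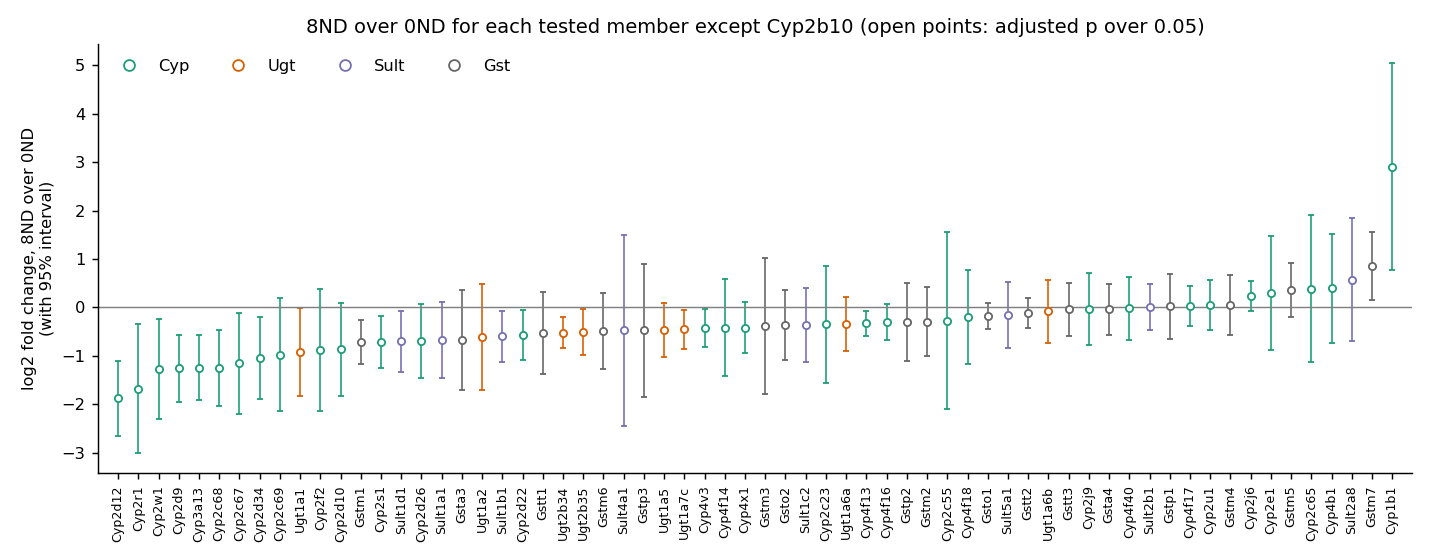
Log2 fold change of 8ND over 0ND for each tested member except Cyp2b10, with its 95% interval (2 SE on each side), colored by family and ordered by value. All points are open because none has an adjusted p of at most 0.05 in edgeR, and most lie below 0.

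Within dysplasia, 8P was compared with 0P. No member passed in edgeR, nor did any other gene (0%), and 9 of 65 members had an unadjusted p under 0.05 (10.1% of all genes), with 0 members called by DESeq2 (0.0577%) or limma-voom (0%). Fitted values were below 0 for 50 of the 65 members, with a median of -0.33, against 0.01 over all genes. The smallest p-values were those of Ugt2b35 (log2 fold change -0.81 ± 0.24 SE, adjusted p = 0.434), Cyp2d10 (log2 fold change -1.73 ± 0.59 SE, adjusted p = 0.465) and Cyp2f2 (log2 fold change -2.30 ± 0.82 SE, adjusted p = 0.465). Without 8P 1 the log2 fold changes of Cyp2d10 and Cyp2f2 were -2.47 and -3.41, each with an adjusted p of 0.517. Among the markers, distal colon genes had 0 of 5 called, 2 with an unadjusted p under 0.05 and 4 fitted values below 0 (median -1.77). They summed to 103 to 187 CPM in 8P, against 114 to 392 CPM in 0P. Absorptive colonocyte genes had 0 of 12 called and 4 with such a p, and the part of these markers was not tested. For Ugt1a7c the interval of the difference between 8P and 0P was -0.25 to 0.62 on the log2 scale, and for Sult1a1 it was -1.34 to 0.44.

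The interaction asked whether the difference between P and ND depended on the FA dose. No member passed in edgeR, nor did any other gene (0%), with 6 members at an unadjusted p under 0.05 (10.4% of all genes), and 0 members passed in DESeq2 (0.433%) or limma-voom (0%). The smallest p-values belonged to Cyp2b10 (adjusted p = 0.312), Gstm7 (log2 fold change -1.49 ± 0.45 SE, adjusted p = 0.316) and Cyp4f13 (log2 fold change 0.55 ± 0.19 SE, adjusted p = 0.337). For Gstm7 this sets the 3.33-fold rise in 8P against the 9.38-fold rise in 0P, and for Cyp4f13 the overlapping levels with 8 mg/kg FA against the fall without FA. The members called on 1 diet only are therefore not shown to differ between diets.

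Other genes of the same pathways were read from lists of receptors, cofactor supply and transport. For comparison with each list here and in the next paragraph, 13.9% of all tested genes were higher and 14.3% lower in 8P. In 0P, 15.9% of all tested genes were higher and 15.7% lower. Of 22 tested receptors and regulators, 12 were lower and 1 higher in 8P, and 16 were lower and 1 higher in 0P, with a median log2 fold change of -0.69 and -0.81. Nr1i2, which encodes Pxr, measured 10.7, 13.5, 18.4, 19.2 and 13.7 CPM in 8P, against 31.8, 27.6, 29.3, 26.4 and 31.6 CPM in 8ND, and 20.0, 16.9, 10.3 and 12.1 CPM in 0P, against 26.2, 51.5, 29.96 and 46.9 CPM in 0ND, with no overlap (-0.96 ± 0.21 SE, adjusted p = 0.00197, and -1.37 ± 0.23 SE, adjusted p = 0.000187). The vitamin D receptor Vdr (-2.34 and -2.85), the bile acid receptor Nr1h4 (-1.72 and -1.99) and Hnf4a (-0.91 and -1.12) were lower too, as log2 fold changes in 8P vs 8ND and in 0P vs 0ND. Ahr was the 1 regulator that was higher, with 81.4, 66.3, 95.2, 89.3 and 82.9 CPM in 8P, against 51.4, 60.2, 57.5, 40.8 and 52.5 CPM in 8ND, and 73.2, 73.8, 81.5 and 94.1 CPM in 0P, against 64.7, 46.2, 50.3 and 53.8 CPM in 0ND (0.66 ± 0.12 SE, adjusted p = 0.000627, and 0.58 ± 0.14 SE, adjusted p = 0.0031). Nfe2l2, which encodes Nrf2, had log2 fold changes of 0.02 ± 0.10 SE and -0.05 ± 0.11 SE and passed in neither comparison (adjusted p = 0.926 and 0.763), and of 12 Nrf2 targets 4 were higher and 4 lower in 8P, and 6 were higher and 3 lower in 0P.

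Genes that supply the conjugating enzymes were lower for 5 of 10 in 8P and 6 of 10 in 0P, and none was higher. The sulfate transporter Slc26a2, also 1 of the 12 absorptive colonocyte markers, measured 104, 90.2, 174, 118 and 156 CPM in 8P, against 457, 486, 463, 564 and 512 CPM in 8ND, and 183, 128, 116 and 98.8 CPM in 0P, against 704, 734, 1165 and 1222 CPM in 0ND (-1.95 ± 0.20 SE, adjusted p = 4.61e-06, and -2.86 ± 0.24 SE, adjusted p = 4.7e-07). Ugdh and Ugp2, which make UDP-glucuronic acid, and Papss1 and Papss2, which make activated sulfate, were lower in both comparisons, with adjusted p between 2e-06 and 0.00916. Glutathione genes had 2 higher and 1 lower of 12 in 8P, and 4 higher and 1 lower in 0P, while 28.2% and 31.6% of all tested genes passed. Slc7a11, the cystine importer that feeds glutathione synthesis, measured 60.03, 41.4, 56.1, 61.7 and 71.9 CPM in 8P, against 23.1, 19.8, 17.9, 22.4 and 18.8 CPM in 8ND, and 47.3, 49.2, 51.7 and 113 CPM in 0P, against 27.3, 11.99, 16.9 and 10.8 CPM in 0ND, with no overlap (1.52 ± 0.26 SE, adjusted p = 0.000336, and 1.94 ± 0.29 SE, adjusted p = 7.72e-05). Por, the reductase that passes electrons to Cyp enzymes, was not called (adjusted p = 0.804 and 0.103), and of 5 electron partners 0 passed in 8P vs 8ND, 1 of them at an unadjusted p under 0.05, and Pgrmc1 was lower in 0P (adjusted p = 0.00334).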

How the data were processed

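RNA from laser-microdissected colonic epithelium was sequenced in 18 libraries (stranded low-input kit, 40 ng total RNA). Per the methods, the authors aligned reads to mm10 with Bowtie and counted them per gene with HTSeq, and the deposited values are raw counts (no version or strand setting is given in the sources used here). The methods name RefSeq genes, whereas the names of all 100 members occur in GENCODE M21, which gave positions and exonic lengths. In each file 5 summary lines that name no gene were left out: 22 to 40.7% of reads fell on no gene, 40.1 to 62.2% did not align uniquely and 0.22 to 0.384% were ambiguous.

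Groups follow the deposited labels. The members and lists were chosen with earlier results of these data known. A regulator on the lists is not reported here. Genes passing the edgeR count filter (minimum count 10; 20787 of 55453) were scaled by TMM and fitted over all 4 groups with edgeR 4.0.16 (robust quasi-likelihood F-test, R 4.3.3, tested on simulated data), with Benjamini-Hochberg adjustment over these genes and calls at an adjusted p of at most 0.05. Depth (3500947 to 17048524 counts) limits genes with few reads. Replicates differed by more than sampling noise (chi-square per gene at least 9.294 in 32 pairs).

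Values in every library are given for the called members with the 5 highest and 5 lowest fold changes (mean of at least 5 CPM), for the 3 smallest p-values where none was called, and for the member with the highest mean CPM in each subfamily; up to 12 further called members per direction have folds only, and the rest of a described subfamily means or tests. Alternatives were DESeq2 1.42.0, limma-voom (limma 3.58.1), other scalings and filters, only the groups compared, a replicate block, and leaving out libraries.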

Additional observations from a re-analysis of the deposited data

Results flagged for a closer look

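In 25 named members and 100 groups of libraries, 10 values stood apart from the rest of their group by Dixon's criterion. Its rate of about 1 in 20 by chance holds for independent groups. The groups here share the same 18 libraries, so that rate gives no expected number for them.

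Cyp2c55 had 11.8 CPM in 8P 5, against 0.218 to 1.66 CPM in the other 8P libraries, and 9.86 CPM in 0P 1, against 0.933 to 1.85 CPM in the other 0P libraries. Cyp4f14 stood apart in the same libraries, with 3.90 CPM in 8P 5, against 0.871 to 1.66 CPM in the others, and 6.34 CPM in 0P 1, against 0.622 to 1.46 CPM in the others. Ugt2b35 was low in 0P 1, with 10.9 CPM, against 15.7 to 16.6 CPM in the other 0P libraries.

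In 8ND 5, Sult1a1 had 91.0 CPM, against 58.7 to 64.1 CPM in the other 8ND libraries, and Sult1d1 had 103 CPM, against 56.2 to 67.5 CPM. Gstm7 was low in 0ND 1, with 1.91 CPM, against 2.72 to 2.82 CPM in the other 0ND libraries. Cyp2f2 had 0.830 CPM in 8P 1, against 0.0704 to 0.278 CPM in the other 8P libraries, and Cyp2b10 had 0.980 CPM in 8P 2, against 2.23 to 2.62 CPM in the others.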

How the results depend on the processing

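The number of called members was 39 in 8P vs 8ND and 33 to 44 under the alternatives that kept every library of the groups compared (44 with DESeq2 and 33 with only the groups compared), and 44 in 0P vs 0ND and 38 to 45 under them (45 with DESeq2 and 38 without the count filter). With only the groups compared, 5 of the 39 in 8P vs 8ND were not in the fit and 1 was lost. Without both 8ND 1 and 8ND 2 the numbers of called members were 40 and 43. Leaving out 1 library at a time gave 37 to 42 in 8P vs 8ND and 37 to 45 in 0P vs 0ND. For 8ND vs 0ND, DESeq2 called 3 members, leaving out 1 library at a time gave 0 to 1, and the other alternatives gave 0. For 8P vs 0P and the interaction, all alternatives gave 0. Without the count filter, the 39 in 8P vs 8ND were 36 of the 39 and 3 members under the filter, and the 38 in 0P vs 0ND were 34 of the 44 and 4 under it. The 3 were Cyp2c40, Cyp2d40 and Ugt2b5, and the 4 were these and Cyp2a12, all lower in P. With DESeq2 all 39 and all 44 were called. No called member of 8P vs 8ND or 0P vs 0ND changed direction under any alternative that fitted it, while 1 to 5 members that were not called did under some of them. The calls lost without the count filter were those of Gstm1, Gstm3 and Sult2b1 in 8P vs 8ND (adjusted p = 0.089, 0.0515 and 0.0688) and, in 0P vs 0ND, those of Cyp2c65 (0.103), Cyp2f2 (0.0614), Cyp2j9 (0.0965), Cyp4f16 (0.061), Cyp4f17 (0.149), Cyp4x1 (0.0871), Gstm2 (0.122), Gstm3 (0.0631), Gsto1 (0.0853) and Gstt3 (0.0554). In 0P vs 0ND, Cyp2j9 and Gstt3 were also lost with RLE size factors (0.053 and 0.0542) and with TMM without the 10 most abundant genes (0.052 and 0.0547), and Cyp2j9 and Cyp4f17 with only the groups compared (0.0572 and 0.0641). Without both 8ND 1 and 8ND 2, Ugt2b35 was lost in 8P vs 8ND (0.0918) and Cyp2j9 and Gstt3 in 0P vs 0ND (0.0672 and 0.0596). The other losses, with limma-voom, with only the groups compared and without 1 library, are given in the report; the cause was not tested. Cyp4f14 had a log2 fold change of -4.28 in 0P vs 0ND with limma-voom.

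Libraries of P and ND share replicate numbers. The correlation of same-numbered libraries ran from -0.0787 to 0.273, and the P library matched its own number best in 5 of 9 cases. These values do not settle whether same-numbered libraries are pairs, and the labels do not say. The main fit used no pairing, and a replicate block was run as an alternative. With a replicate block 40 members were called in 8P vs 8ND, 42 in 0P vs 0ND and 0 in the interaction. The block ended the calls of Gsta4 (0.78 on the log2 scale, adjusted p = 0.0621) and Sult2b1 (0.0563) in 8P vs 8ND, and of Cyp2j9 (0.0792), Cyp4f17 (0.0615) and Gsto1 (0.0644) in 0P vs 0ND.

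Depth limits the 35 untested members, which had 10 to 85 counts over 18 libraries, and reads of near-identical copies (Cyp2c, Cyp2d, Gstm and Ugt1a genes) may be divided wrongly. Library numbers of 4 or 5 per group limit the comparisons between FA doses.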

Other observations

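Enzymes and pumps outside the 4 families were read from the same libraries. For comparison with these lists, 13.9% of all tested genes were higher and 14.3% lower in 8P. In 0P, 15.9% of all tested genes were higher and 15.7% lower. Of 29 other oxidizing and hydrolyzing enzymes tested, 15 were lower and 2 higher in 8P, and 18 were lower and 2 higher in 0P. The monoamine oxidases Maoa (-1.75 ± 0.18 SE in 8P vs 8ND and -2.10 ± 0.21 SE in 0P vs 0ND) and Maob (-2.70 ± 0.30 SE and -2.80 ± 0.32 SE), the carboxylesterase Ces2c (-3.25 ± 0.47 SE and -3.43 ± 0.51 SE) and the retinal dehydrogenase Aldh1a1 (-1.94 ± 0.33 SE and -2.97 ± 0.39 SE) were lower, as log2 fold changes with an adjusted p of at most 0.000313 in edgeR. Aldh1a3, another retinal dehydrogenase, was higher on both diets (1.67 ± 0.40 SE, adjusted p = 0.00537, and 2.87 ± 0.47 SE, adjusted p = 0.000235), as was the epoxide hydrolase Ephx1 (0.97 ± 0.21 SE, adjusted p = 0.00182, and 1.12 ± 0.23 SE, adjusted p = 0.00102). Other conjugating enzymes were lower for 7 of 14 genes on both diets and higher for none, with the membrane-bound glutathione transferases Mgst1, Mgst2 and Mgst3 among the 7 in each comparison (log2 fold changes from -1.38 to -1.02 in 8P and from -1.40 to -1.20 in 0P).

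Export pumps split by gene, with 4 higher and 4 lower of 11 in 8P, and 6 higher and 4 lower in 0P. Of all tested genes, 28.2% passed in 8P vs 8ND and 31.6% in 0P vs 0ND. Abcc2, which pumps glucuronide, sulfate and glutathione conjugates out of cells, measured 169, 94.2, 69.9, 183 and 56.8 CPM in 8P, against 36.1, 17.7, 1.395, 16.8 and 9.66 CPM in 8ND, and 58.5, 112, 182 and 181 CPM in 0P, against 3.50, 2.12, 2.60 and 1.08 CPM in 0ND. Every P library was above every ND library (2.83 ± 0.59 SE, adjusted p = 0.00209, and 5.78 ± 0.79 SE, adjusted p = 5.37e-05). Abcc4, a pump for cyclic nucleotides and prostaglandins, was higher as well (1.57 ± 0.17 SE, adjusted p = 5.7e-06, and 2.05 ± 0.19 SE, adjusted p = 1e-06). The drug pumps Abcg2 (-1.53 ± 0.18 SE and -1.75 ± 0.21 SE) and Abcb1a (-1.43 ± 0.26 SE and -2.32 ± 0.29 SE) were lower, with adjusted p of at most 0.000482 in edgeR.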
